A study of Meleagris gallopavo with 24 samples.

Results

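Genes of RNA splicing and of RNA-binding proteins were described in the heart and liver of turkeys (Meleagris gallopavo) fed salinomycin (Sal). A gene was a member if its deposited symbol belonged to the SRSF, SNRP, SNRNP, SF3A, SF3B, HNRNP, PRPF, LSM, RBM, DDX, DHX, LUC7L, PTBP, MBNL, RBFOX, CELF, TRA2, CLK, SRRM, SRPK, NOVA or ELAVL families, or was SF1, QKI, SON, U2SURP or a U2AF gene. The rule used symbols alone, but it was set with earlier results of these data known. Among the 11587 genes with counts 73 were members, namely 21 DDX and DHX helicases, 15 snRNP-specific, U2 and splice-site factors, 13 RBM genes, 10 snRNP core and Sm-like genes, 6 tissue-type splicing regulators, 5 hnRNP and PTB genes and 3 SR-type genes and kinases. These groups follow the gene symbols. The snRNP core and Sm-like group takes all SNRP and LSM symbols, and so also holds SNRPA1 and SNRPB2, which are U2 snRNP proteins and not core Sm proteins. A symbol was deposited for 4985 of the 11587 genes, so a splicing gene without one was not counted. Symbols carried over from RefSeq on the same assembly would bring the members to 129.

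The 24 libraries came from bulk pieces of heart and liver tissue of female turkeys, with 6 libraries for each tissue and treatment. Sal is a polyether ionophore given in poultry feed against coccidia. All birds were kept on a Sal-free diet to week 11. The Sal-exposed birds then received 21 mg Sal per kg feed in weeks 12 and 13, which the study's methods put at about 0.9 mg per kg body weight each day. The control birds stayed on Sal-free feed, pens held 4 birds, and tissues were taken in week 13. Liver control 3, a shallow library of 3729229 counts, was left out here, so 5 liver controls remain. Heart and liver were homogenized in different ways, so tissue and homogenization cannot be told apart. The labels do not state which heart and liver libraries came from the same bird. The p-values measure the spread between these libraries.

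Introns are removed by the spliceosome, whose small nuclear ribonucleoproteins (snRNPs) carry rings of Sm or Sm-like (LSM) proteins and are joined by snRNP-specific proteins. DDX and DHX helicases remodel RNA during splicing, ribosome assembly, translation and decay. RBM, hnRNP, SR, MBNL, RBFOX and CELF proteins bind the transcript and set which exons are kept. In heart muscle RBM20, RBM24, RBFOX2, MBNL1 and CELF2 are known for controlling the splicing of sarcomere and calcium-handling transcripts.

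Heart libraries held 23372118 to 35979378 counts and the 11 liver libraries 15706646 to 31305782. Mitochondrial genes made up 48.3 to 86.9% of a heart library and 16.7 to 46.2% of a liver library. The 5 cardiomyocyte markers in the table (of 12 listed) summed to 6728 to 61612 CPM (counts for each 1000000 counts of library size) in heart and at most 37.1 CPM in liver. The 11 hepatocyte markers in the table summed to 196525 to 294613 CPM in liver and at most 1768 CPM in heart, so both tissue labels held. CPM values of members below are scaled with TMM factors within the tissue unless stated otherwise. All marker values, and the pooled or floor-based ratios and heart percentages of RBM20 and RBM24, use library size without TMM factors. Levels are not compared between genes, since no transcript lengths were used.

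In liver 16 members changed with edgeR, among them RBM12 and MBNL1 upward and SNRNP27 and LSM1 downward, and in heart no member passed with it. DESeq2 with surrogate variables, the kind of fit the study used, passed 36 members in liver and 14 in heart. Of all genes 46.2% passed in that liver fit and 14.5% in that heart fit. With edgeR the share of members higher in liver was near that of all genes. Of the 70 members tested in liver, 6 were higher in the Sal-exposed birds at an adjusted p of at most 0.05 (edgeR quasi-likelihood test, Benjamini-Hochberg over all genes), where 7.36% of all 10269 genes tested were higher. Another 10 members were lower (6.89% of all genes were lower). The split depended on the scaling, with 3 higher and 2 lower with library size alone (5.9 and 2.11% of all genes) and 1 higher and 26 lower with a trend on the genomic span of the genes removed from each library (3.3 and 17.4% of all genes). With the further demand that the log2 fold change reach 1 in size, 3 members were upregulated (RBM12, MBNL1, DHX29) and 2 downregulated (SNRNP27, LSM1), against 8.32% of all genes called in either direction. The median log2 fold change of the members in liver was -0.19 (44 negative, 26 positive), beside 0.03 for all genes tested (4945 negative, 5324 positive). In 6 members the CPM values of the Sal-exposed libraries all lay above those of the controls (6.6% of all genes), and in 5 members all lay below (3.46% of all genes).

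**Figure D1:**
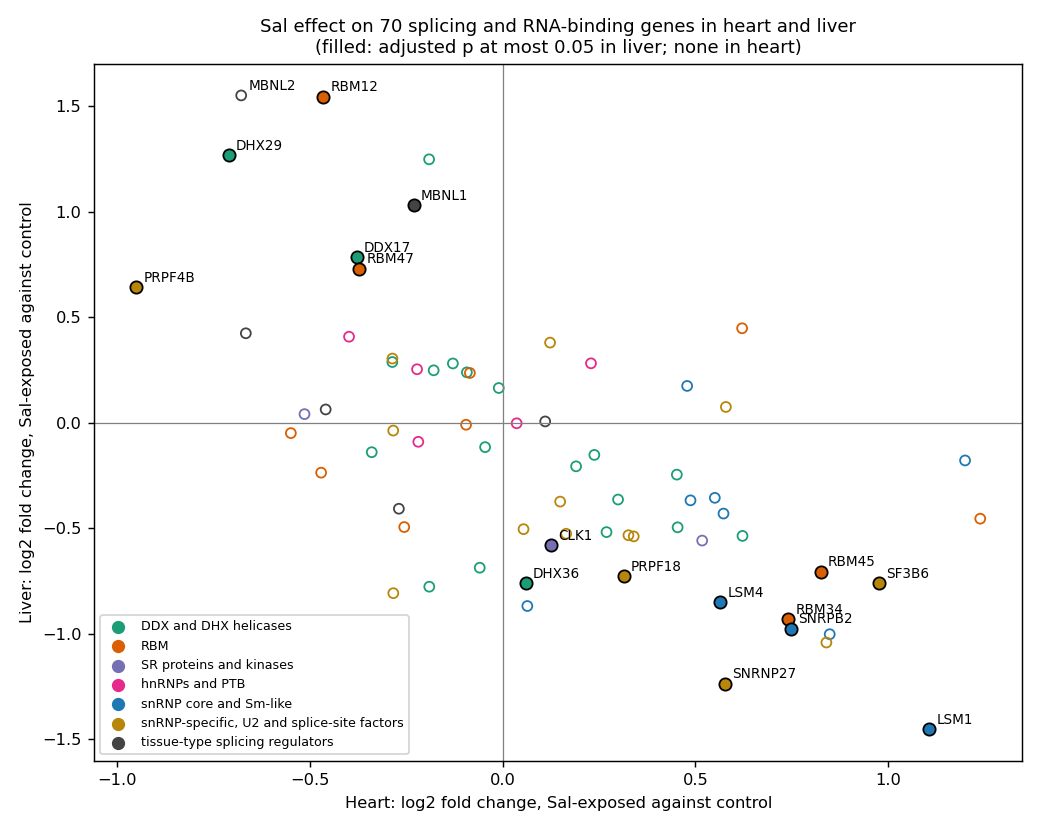
Log2 fold change of Sal-exposed against control birds in heart (x axis) and liver (y axis) with TMM scaling, 1 point for each of the 70 members tested in both tissues, coloured by role; filled points passed an adjusted p of 0.05 in liver. The points run from the upper left (RBM12 at 1.54, DHX29 at 1.27 and MBNL1 at 1.03 in liver) to the lower right (LSM1 at -1.45 and SNRNP27 at -1.24 in liver). No member passed the edgeR test in heart.

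Among the snRNP core and Sm-like genes, 9 of 10 had negative log2 fold changes in liver (median -0.64), beside 4945 of all 10269 genes tested. Over all genes, a bin of 1027 genes with a median span of 4673 bp (4081 bp in this group) had a median of -0.19. SNRPB2, LSM4 and LSM1 fell past the threshold. SNRPB2 encodes a protein of the U2 snRNP that binds its RNA, and is in this group by its symbol only. Its liver controls held 8.82, 15.3, 17.3, 23.2 and 15.6 CPM (controls 1, 2, 4, 5 and 6), and the Sal-exposed libraries 4.24 to 10.3 CPM with a median of 8.24. Only control 1 lay within the range of the Sal-exposed libraries. SNRPB2 fell by 0.98 on the log2 scale (SE 0.271, adjusted p = 0.0271). LSM4 is a subunit of both the nuclear ring on U6 RNA and the cytoplasmic ring of messenger RNA decay. It stood at 11.3, 13.0, 15.2, 7.74 and 13.0 CPM in the controls and 4.26 to 9.16 CPM (median 6.35) in the Sal-exposed libraries, with control 5 alone overlapping. Its log2 fold change was -0.85 (SE 0.254, adjusted p = 0.0354). LSM1, the subunit particular to the decay ring, was low throughout, at 0.997, 4.03, 3.98, 4.06 and 2.36 CPM in the controls and 0.624 to 1.44 CPM (median 1.11) in the Sal-exposed libraries. Control 1 sat among the Sal-exposed libraries and the other 4 controls above them. The log2 fold change of LSM1 was -1.45 (SE 0.479, adjusted p = 0.0454). The other members of this group did not pass, from LSM8 at -1.003 and LSM6 at -0.87 to LSM3 at 0.17, the only positive value. The count of 9 negative members was the same with RLE factors, with library size alone, over nuclear genes and with the genomic span trend removed, and was 7 with surrogate variables or voom weights.

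Among the 15 snRNP-specific, U2 and splice-site factors, 11 were negative in liver (median -0.53), SNRNP27, PRPF18 and SF3B6 fell, and PRPF4B rose. SNRNP27, a small protein of the tri-snRNP encoded on chromosome 24 from 3000605 to 3002336 (Turkey_5.1), held 24.95, 25.7, 42.2, 41.8 and 21.3 CPM in controls 1, 2, 4, 5 and 6 and 9.81 to 18.3 CPM (median 12.5) in the Sal-exposed libraries. Every Sal-exposed library lay below every control. The log2 fold change was -1.24 (SE 0.242, adjusted p = 0.00597). PRPF18, which acts at the last catalytic step of splicing, held 36.2, 31.5, 31.0, 39.9 and 51.2 CPM in the controls and 19.9 to 29.9 CPM (median 22.1) after Sal. Its groups did not overlap either, and it fell by 0.73 (SE 0.185, adjusted p = 0.0192). SF3B6, the SF3B subunit next to the branch point, held 19.4, 25.8, 35.5, 33.5 and 20.5 CPM in the controls and 12.0 to 18.5 CPM (median 16.2) after Sal. Controls 1 and 6 were just above the highest Sal-exposed library, and the log2 fold change was -0.76 (SE 0.210, adjusted p = 0.0269). PRPF4B, a kinase that phosphorylates tri-snRNP proteins, went the other way, from 29.2, 27.1, 22.6, 25.5 and 25.03 CPM to 32.3 to 47.7 CPM (median 40.3). All Sal-exposed libraries were above all controls, and PRPF4B rose by 0.64 (SE 0.168, adjusted p = 0.0215). SF3B1, the large scaffold of the U2 snRNP, had a log2 fold change of -0.04 (SE 0.176, adjusted p = 0.909) with overlapping groups. PRPF3 at -0.53 (adjusted p = 0.0511) was the member nearest outside the threshold, just beyond LSM1 inside it.

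**Figure D2:**
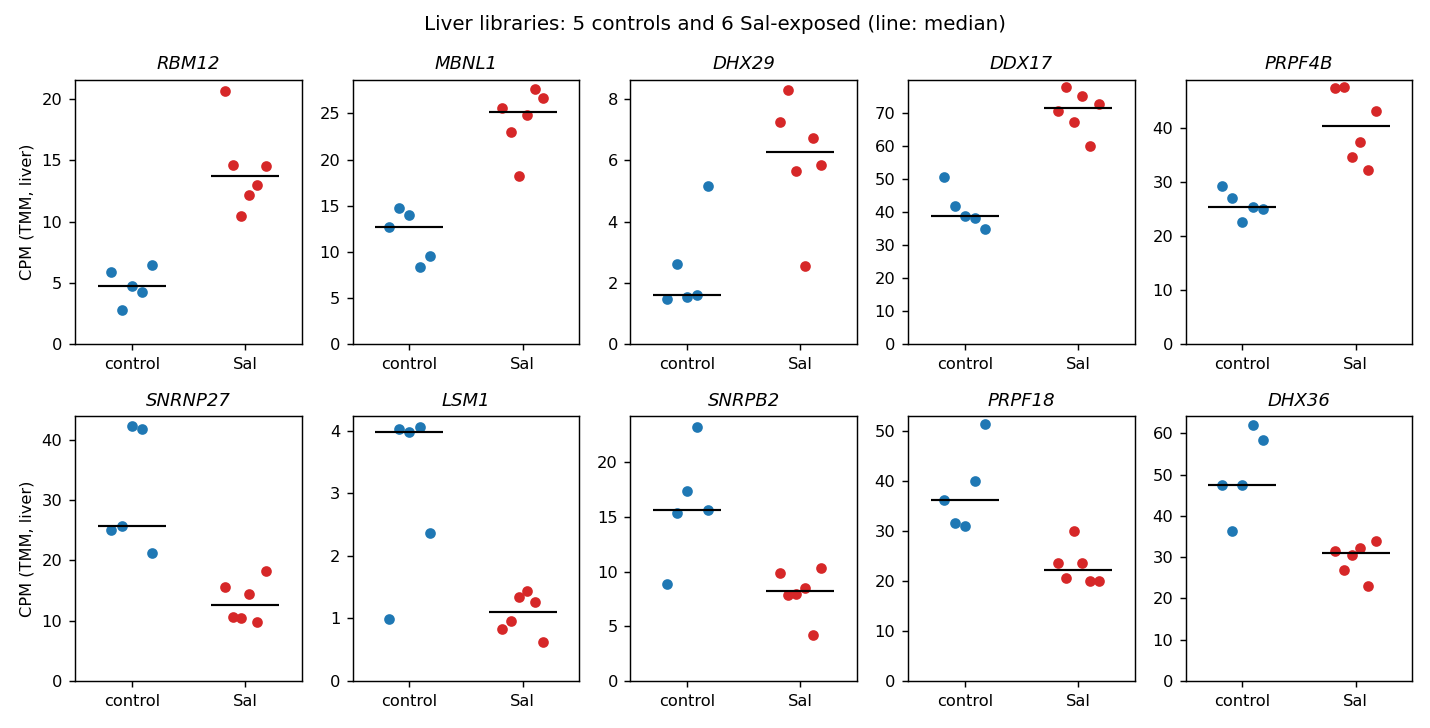
CPM (TMM, liver; y axes from 0) of 10 members past the threshold in the 5 control (blue) and 6 Sal-exposed (red) liver libraries, a point for each library and a line at the group median. RBM12, MBNL1, DDX17 and PRPF4B show Sal-exposed libraries above every control and SNRNP27, PRPF18 and DHX36 below every control, while in DHX29, LSM1 and SNRPB2 a library of 1 group sits among the other group.

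Of the 11 RBM genes tested in liver, RBM12 and RBM47 rose and RBM34 and RBM45 fell. RBM12, a nuclear protein with several RNA recognition motifs encoded on chromosome 22 from 1096782 to 1099424, held 5.87, 2.75, 4.75, 4.29 and 6.47 CPM in the controls and 10.5 to 20.7 CPM (median 13.7) in the Sal-exposed libraries. The lowest Sal-exposed library was well above the highest control. RBM12 had the smallest p of all members in liver, with a log2 fold change of 1.54 (SE 0.264, adjusted p = 0.00275), and lost its call with liver control 3 included (adjusted p = 0.124). Its gene model lies wholly inside RefSeq's CPNE1, and reads of overlapping genes cannot be told apart where strand is not used. RBM47, known in mammals as a partner of the enzyme that edits APOB messenger RNA, held 26.2, 32.4, 14.97, 18.8 and 16.7 CPM in the controls and 27.8 to 43.4 CPM (median 37.8) after Sal. Control 2 overlapped the Sal-exposed range, and RBM47 rose by 0.73 (SE 0.224, adjusted p = 0.0403). RBM34, a nucleolar protein, fell by 0.93 (SE 0.250, adjusted p = 0.0233), from 11.3, 21.1, 10.4, 18.6 and 11.8 CPM to 6.32 to 11.2 CPM (median 7.16), with Sal-exposed library 3 above control 4. RBM45 fell by 0.71 (SE 0.218, adjusted p = 0.0409), from 19.97, 21.2, 22.4, 28.3 and 15.9 CPM to 10.2 to 18.9 CPM (median 11.7), with control 6 inside the Sal-exposed range.

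Of the 20 helicases tested in liver, DDX17 and DHX29 rose and DHX36 fell. DDX17, a close relative of DDX5 that takes part in splicing and transcription, held 50.6, 41.9, 38.9, 38.02 and 35.0 CPM in the controls and 59.8 to 77.8 CPM (median 71.5) in the Sal-exposed libraries. The groups were apart, and DDX17 rose by 0.78 (SE 0.159, adjusted p = 0.00688). DDX5 itself had a log2 fold change of 0.24 (SE 0.189, adjusted p = 0.422), with Sal-exposed libraries at 158 to 267 CPM and controls at 150 to 230 CPM. DHX36, which unwinds guanine quadruplexes in RNA, fell by 0.76 (SE 0.179, adjusted p = 0.0134), from 47.4, 36.2, 47.4, 62.2 and 58.4 CPM to 22.99 to 33.9 CPM (median 31.0) without overlap. DHX29, a helicase of translation initiation rather than splicing, held 1.48, 2.61, 1.54, 1.61 and 5.17 CPM in the controls and 2.57 to 8.30 CPM (median 6.29) after Sal. Control 6 was high and Sal-exposed library 4 was low in DHX29, and the log2 fold change was 1.27 (SE 0.408, adjusted p = 0.0453). DHX57 did not pass (log2 fold change 1.25, adjusted p = 0.176) although its Sal-exposed libraries, at 5.22 to 8.43 CPM, all exceeded its controls at 3.03, 3.60, 0, 3.32 and 4.56 CPM. DHX58, an antiviral RNA sensor, had the lowest fold change of the group, at -0.78 (adjusted p = 0.0979).

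Of the 6 tissue-type regulators, 5 were positive in liver (5324 of all 10269 genes tested were), and MBNL1 passed. The 5 include the RBFOX2 row, which cannot be told apart from myoglobin, is not read as RBFOX2 and changed sign between fits. MBNL1, a muscleblind protein that controls exon choice and RNA localization, held 12.7, 14.8, 14.0, 8.39 and 9.51 CPM in the controls and 18.3 to 27.7 CPM (median 25.2) in the Sal-exposed libraries. All 6 Sal-exposed libraries were above all controls, and MBNL1 rose by 1.03 (SE 0.205, adjusted p = 0.00631). Its paralogue MBNL2 had a larger but less certain log2 fold change of 1.55 (SE 0.584, adjusted p = 0.0782), from 2.40, 0.0474, 2.93, 1.47 and 0.900 CPM to 3.74 to 5.89 CPM. The MBNL2 groups were apart, with control 2 resting on 1 count. The count of 5 positive members became 4 with RLE factors and 2 with the genomic span trend removed. CELF6 was the member of this group with a negative value, at -0.41 (adjusted p = 0.529). Among the SR-type genes, CLK1, a kinase of SR proteins, fell by 0.58 (SE 0.166, adjusted p = 0.0314), from 44.1, 40.1, 48.95, 31.8 and 38.2 CPM to 23.02 to 30.9 CPM (median 27.1) without overlap, while TRA2A stood at 0.04 (adjusted p = 0.905). None of the 5 hnRNP and PTB genes passed in liver, from HNRNPA3 at 0.41 (adjusted p = 0.190) to HNRNPA2B1 at -0.09 (adjusted p = 0.823).

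Several liver calls rested on single libraries. RBM12, SNRNP27, MBNL1, DDX17, DHX36 and PRPF18 passed in all 11 fits that left out 1 library, with adjusted p of at most 0.0482. Of these 6, DHX36 and PRPF18 were lost with library size alone, with the replicate block and without controls 1 and 5, and DDX17 and MBNL1 with the span trend removed. With liver control 3 included, 3 of the 16 still passed, namely DDX17, SNRNP27 and DHX36. Of all genes 3.22% passed in that fit, beside 14.3% as reported. PRPF4B was lost without control 5 or Sal-exposed library 2, up to an adjusted p of 0.0667, and SNRPB2 without control 5 or Sal-exposed library 2 or 5, up to 0.0858. RBM34 was lost without control 5 or Sal-exposed library 2, 4 or 5 (up to 0.0675), and SF3B6 without control 4 or 5 or Sal-exposed library 1 or 5 (up to 0.0767). CLK1 was lost without control 1 or 4 or Sal-exposed library 1, 2, 3 or 5 (up to 0.0679), and LSM4 without control 4 or 6 or Sal-exposed library 1, 2, 4 or 6 (up to 0.0744). RBM45 passed only without control 2, control 6 or Sal-exposed library 6 (up to 0.119 otherwise), and RBM47 only without control 1, control 2 or Sal-exposed library 3 (up to 0.109 otherwise). DHX29 passed only without control 6 or without Sal-exposed library 4, and LSM1 only without control 1, with adjusted p up to 0.112 and 0.117 in the other fits.

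Some markers of other cells differed between the liver groups, and none of the 6 library tests passed after adjustment. The 12 enterocyte markers in the table (of 14 listed) summed to 1657 to 21907 CPM in the liver controls and 332 to 1005 CPM in the Sal-exposed libraries, none of the 12 being at 0 in all libraries of either group. Without APOA4 the other 11 summed to 7298 CPM in control 1, 1357 CPM in control 5, 136 to 205 CPM in the other 3 controls and 128 to 258 CPM after Sal. The 4 fibroblast and stellate markers in the table (of 8) summed to 39.7 to 147 CPM after Sal (median 82.3) and 21.6 to 86.0 CPM in the controls (median 57.6). All 4 had a higher mean after Sal, from PDGFRA at 0.324 against 0.281 CPM to PDGFRB at 6.39 against 0.588 CPM. The 5 leukocyte markers in the table (of 8) summed to 367 to 1031 CPM after Sal (median 692) and 281 to 864 CPM in the controls (median 465). Of these, 4 of 5 had a higher mean after Sal, from CD74 at 456 against 399 CPM to CSF1R at 81.1 against 30.9 CPM. CD3E was lower after Sal, at 1.25 against 1.96 CPM. The 7 cycling cell markers in the table (of 8) summed to 3.77 to 10.7 CPM after Sal (median 6.90) and 2.61 to 55.96 CPM in the controls (median 16.04). These 3 lists overlapped between the groups, and none of their markers was at 0 in all libraries of a group. Without controls 1 and 5, a choice made after seeing the data, 3 members were higher and 6 lower (3.95 and 2.81% of all genes), 8 of them from the 16, with RBM12, MBNL1, DDX17, SNRNP27, SNRPB2, LSM1, LSM4 and CLK1 still past the threshold. The number of genes with at least 1 count was 9268 to 11055 in the controls and 10918 to 11350 in the Sal-exposed liver libraries (2-sided exact permutation test p = 0.00866, adjusted p = 0.0519 over 6 library tests). Without controls 2 and 4, which had the fewest genes, 7 members were higher and 11 lower (12.2 and 11.7% of all genes). The part of these measures in the members' differences was not tested. In bulk tissue fewer cells of a type and less RNA per cell cannot be told apart.

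In heart 0 of 72 members passed with edgeR, where 1.01% of all 10265 genes tested passed in either direction. An unadjusted p under 0.05 was reached by 17 members, against 17.3% of all genes. The median log2 fold change was 0.06 (38 positive, 34 negative), beside 0.01 for all genes (5273 positive, 4992 negative). With library size alone it was -0.33, beside -0.38 for all genes. DESeq2 passed 4 members (CLK3, DDX49, LUC7L2 and RBM45, all higher), where 4.89% of all genes passed in either direction. DESeq2 with surrogate variables passed 14 of 70 (9 higher and 5 lower, 14.5% of all genes) and voom with quality weights 5 of 72 (1 higher and 4 lower, 10.1% of all genes). In 4 members, CLK3, LUC7L2, PRPF3 and DHX37, all Sal-exposed heart libraries were above all controls (0.867% of all genes), and in 0 members were they all below (1.81% of all genes). CLK3, an SR protein kinase, stood at 9.45 to 14.0 CPM (median 11.3) in the Sal-exposed libraries and 7.12 to 9.32 CPM (median 7.72) in the controls, a log2 fold change of 0.52 (SE 0.154, adjusted p = 0.136). LUC7L2, a factor of 5′ splice-site choice, stood at 35.2 to 46.1 CPM (median 39.8) against 28.9 to 34.5 CPM (median 31.7), a log2 fold change of 0.34 (SE 0.134, adjusted p = 0.231). RBM45, with the smallest p in heart, stood at 12.3 to 29.9 CPM (median 18.2) against 8.97 to 16.8 CPM (median 9.87), a log2 fold change of 0.82 (SE 0.242, adjusted p = 0.131). These groups overlapped in RBM45 and were narrowly apart in CLK3 and LUC7L2, and LUC7L2 turned negative with library size alone. Some markers of other cells differed between the heart groups. The 7 cycling cell markers summed to 4.58 to 12.2 CPM after Sal and 27.2 to 90.7 CPM in the controls, without overlap. The 4 fibroblast markers summed to 108 to 282 CPM after Sal (median 198) and 186 to 537 CPM in the controls (median 445), all 4 with a lower mean after Sal. RYR2, the calcium release channel of heart muscle, had a mean of 139 CPM after Sal and 361 CPM in the controls, while the other 4 cardiomyocyte markers had higher means after Sal. The part of these markers in the members' values was not tested. No library measure passed in heart (exact permutation tests). The adjusted p was 0.188 for the span trend, 0.126 for genes with a count and 0.810 for the mitochondrial share.

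All 10 snRNP core and Sm-like genes had positive log2 fold changes in heart (median 0.57, 9 of 10 with library size alone), and none passed. Of all 10265 genes tested 5273 were positive. Over all genes, a bin of 1028 genes with a median span of 4774 bp (4081 bp in this group) had a median of 0.24. SNRPA1, of the U2 snRNP, was at 1.49 to 9.39 CPM (median 2.47) after Sal and 0.843 to 2.30 CPM (median 1.31) in the controls. SNRPB2 was at 11.0 to 38.5 CPM (median 13.4) and 8.41 to 14.7 CPM (median 9.96). The highest value in both genes came from Sal-exposed heart library 1, which also held the highest RBM7, SF3B6 and SNRNP40 levels, at 200, 128 and 17.05 CPM. Without Sal-exposed heart libraries 1 and 5, a choice made after seeing the data, 7 of the 10 were positive with a median of 0.18, and 0 members passed in either direction. Among the 15 snRNP-specific, U2 and splice-site factors, 11 were positive in heart (median 0.16), but 4 of 15 with library size alone, the scaling that moved all genes down. PRPF4B had the lowest value of all members in heart, -0.95 (SE 0.400, adjusted p = 0.253), at 3.27 to 27.6 CPM (median 11.9) after Sal and 21.2 to 38.2 CPM (median 25.7) in the controls. The low end was again library 1. Of the 6 tissue-type regulators 5 were negative, the lowest MBNL2 at -0.68 (adjusted p = 0.319). The positive value, 0.11 (adjusted p = 0.913), was that of the RBFOX2 row, which cannot be told apart from myoglobin and is not read as RBFOX2. RBM20, a repressor of titin exons, was at 28.7 to 62.5 CPM (median 54.1) after Sal and 44.8 to 76.7 CPM (median 69.3) in the controls, a log2 fold change of -0.37 (SE 0.217, adjusted p = 0.380).

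The difference between the Sal effects in liver and heart was then tested in a joint fit of the 23 libraries, since a pass in 1 tissue alone does not show it. Of the 72 members tested, 8 had a higher effect in liver than in heart (10% of all 11158 genes tested) and 19 a lower effect (8.46% of all genes). Among the 8, RBM20 and RBM24 entered this fit through their heart level alone, with 1 and 0 counts over the 5 liver controls, so nothing is read from their calls. With the fold demand 21 members were called, against 16.5% of all genes. The median difference was -0.28 (0.05 for all genes). The differences of SNRNP27, at -1.82 (SE 0.347, adjusted p = 0.00184), and of RBM12, at 2.00 (SE 0.444, adjusted p = 0.00424), passed under all 12 alternatives and with any library left out. RBM45 differed by -1.54 (SE 0.324, adjusted p = 0.00329), PRPF18 by -1.05 (SE 0.226, adjusted p = 0.00372) and CLK3 by -1.09 (SE 0.236, adjusted p = 0.00386). These 3 passed with any library left out but were lost with library size alone. That scaling moved the median difference of all genes to 0.57 and that of the members to 0.32. It gave 8 higher and 1 lower (11.7 and 0.833% of all genes). CLK3 was also lost with liver control 3 included. DDX17 differed by 1.16 (adjusted p = 0.00711), PRPF4B by 1.59 (adjusted p = 0.0190) and MBNL2 by 2.22 (adjusted p = 0.0222), and these 3 were lost with the genomic span trend removed. All 10 snRNP core and Sm-like genes had negative differences (median -1.20, 9 of 10 with library size alone), beside 5356 of all 11158 genes. SNRPB2 at -1.73, LSM1 at -2.57, LSM4 at -1.42 and LSM8 at -1.86 were past the threshold. SNRPB2, LSM1 and LSM4 were lost with library size alone. LSM1 and LSM4 were also lost with the replicate block and with liver control 3 included. Without Sal-exposed heart libraries 1 and 5, 8 members were higher and 10 lower (8.85 and 2.95% of all genes). That fit lost LSM1, LSM4, LSM8, SF3B6, SF3B5, RBM7, RBM34, DHX33, DHX37 and PRPF4. Leaving out Sal-exposed heart library 1 alone left 12 lower (4.2% of all genes) and 13 called. In that fit LSM4, SF3B6 and RBM7 were lost, as they were without heart control 2 (adjusted p up to 0.0686, 0.0918 and 0.0971). LSM4 and SF3B6 were lost without liver control 4 too, a fit that also left 12 lower (6.03% of all genes). LSM8 was lost with library size alone, with liver control 3 included and in 15 of the 23 fits that left out a library, passing only without heart control 3, Sal-exposed heart library 2, 4 or 6, liver control 1 or 2, or Sal-exposed liver library 1 or 3. The heart and liver comparisons share no library, while the difference is made from both. The log2 fold change had opposite signs in the 2 tissues in 52 of the 70 members tested in both (74.3%), of which 32 were positive in heart and negative in liver, beside 65.3% of 9484 genes.

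The members' fold changes ran with the genomic span of their gene models, and did so in opposite directions in the 2 tissues. Across members, which are not independent replicates and share their libraries, Spearman's rho of log2 fold change with span was -0.49 in heart and 0.42 in liver, beside -0.34 and 0.22 over all genes. The 24 shortest tested members, of 261 to 7037 bp, had a median log2 fold change of 0.50 in heart (19 positive) and -0.48 in liver (19 negative). The longest, of 16840 to 301561 bp, had medians of -0.21 in heart (24 members) and 0.06 in liver (23 members). The members that rose in liver had a median span of 16394 bp and those that fell 6491 bp, while over all genes the medians were 21565 bp and 7805 bp. The snRNP core and Sm-like genes were the shortest group (median 4081 bp) and the tissue-type regulators the longest (median 60553 bp). RBM12 departed from this order, with a model span of 2643 bp and the second highest fold change in liver after MBNL2. RefSeq places RBM12 at 1092368 to 1101368, wider than this model. It places SNRPB2 at 5322375 to 5327798, narrower than its model of 54366 bp, so model spans can differ from those of the genes. A trend of expression on span was also present in single libraries. Spearman's rho of a library's deviation from its tissue mean with span was -0.390 and -0.395 in Sal-exposed heart libraries 1 and 5, -0.205 in heart control 3, and -0.0820 to 0.304 in the other 9 heart libraries. In liver it was 0.12 ± 0.14 (SD, n = 6) after Sal and -0.12 ± 0.09 (SD, n = 5) in the controls (exact permutation test p = 0.0173, adjusted p = 0.0519). With the span trend removed from each library, 1 member was higher in liver (RBM12) and 26 were lower (3.3 and 17.4% of all genes). The median of all genes moved to -0.26. The cause of the span trend was not tested.

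**Figure D3:**
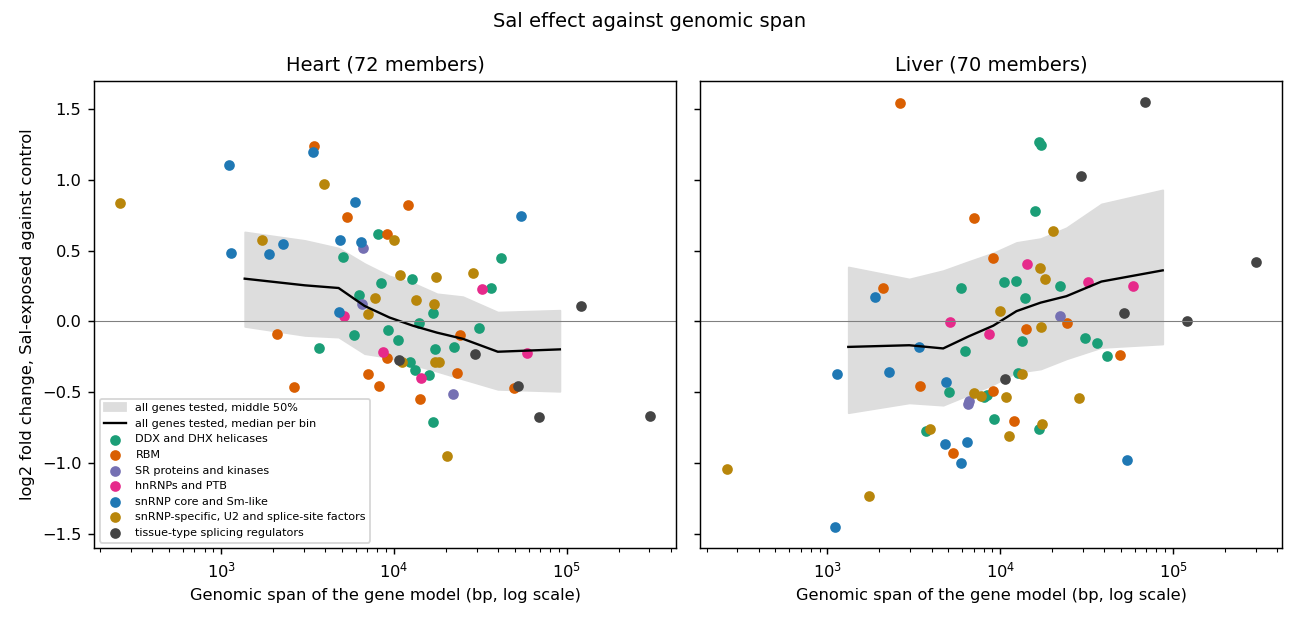
Log2 fold change of Sal-exposed against control birds (y axis) against the genomic span of the gene model in bp (log x axis) for the 72 members tested in heart (left) and the 70 tested in liver (right), coloured by role; the line and grey band give the median and middle 50% of all genes tested in bins of span. In heart the line falls and in liver it rises with span; the 24 shortest members lie mostly above 0 in heart (median 0.50) and mostly below 0 in liver (median -0.48).

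In the control birds members differed between the tissues about as often as other genes (52.8% of members and 57.6% of all genes passed). CELF2, MBNL1 and MBNL2 were higher in heart, while the tissue-type regulators CELF6 and MBNL3 had positive values of 0.52 and 0.41 that did not pass (adjusted p = 0.208 and 0.454). RBM20 and RBM24 entered this fit through their heart level alone. Their calls, counted below among the members higher in heart, are therefore not read, and only their levels are given. The RBFOX2 row, which cannot be told apart from myoglobin, is counted there too and is not read as RBFOX2. Of the 72 members tested, 28 were higher in liver (29.8% of all 11158 genes) and 10 higher in heart (27.8% of all genes), and 25 were called with the fold demand (47.3% of all genes). The median log2 difference of liver against heart was 0.35 (0.01 for all genes), and -0.26 with liver control 3 included (-0.62 for all genes). Levels here are CPM scaled over both tissues, in the 6 heart and the 5 liver controls. RBM20 was at 46.9 to 79.2 CPM in heart (median 71.1) and at 0, 0, 0.0468, 0 and 0 CPM in liver, with 1 read in 5 livers. With so few liver reads, no ratio between the tissues is given for RBM20 or RBM24. RBM24, which in mammals holds muscle exons in, was at 5.89 to 13.9 CPM in heart (median 10.1) and at 0 in all 5 liver controls. CELF2 was at 3.17 to 4.72 CPM in heart (median 3.97) and 0.606, 1.86, 0, 0.179 and 0 CPM in liver, a log2 difference of -2.73 (SE 0.753, adjusted p = 0.00198). MBNL2 was at 6.81 to 12.7 CPM in heart (median 8.61) against 2.32, 0.0454, 2.86, 1.43 and 0.889 CPM in liver, a log2 difference of -2.49 (SE 0.517, adjusted p = 0.000162). MBNL1 was at 34.6 to 43.9 CPM in heart (median 39.2) against 12.3, 14.2, 13.6, 8.13 and 9.39 CPM in liver, a log2 difference of -1.76 (SE 0.298, adjusted p = 1.67e-05). These 5 genes were picked partly for a large difference. The share of all genes without overlap between the tissues was not counted, so nothing is read from their ranges. RBM12, the member with the clearest rise in liver after Sal, was also higher in heart, at 8.94 to 13.6 CPM against 2.63 to 6.39 CPM (log2 difference -1.33, SE 0.327, adjusted p = 0.00106).

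**Figure D4:**
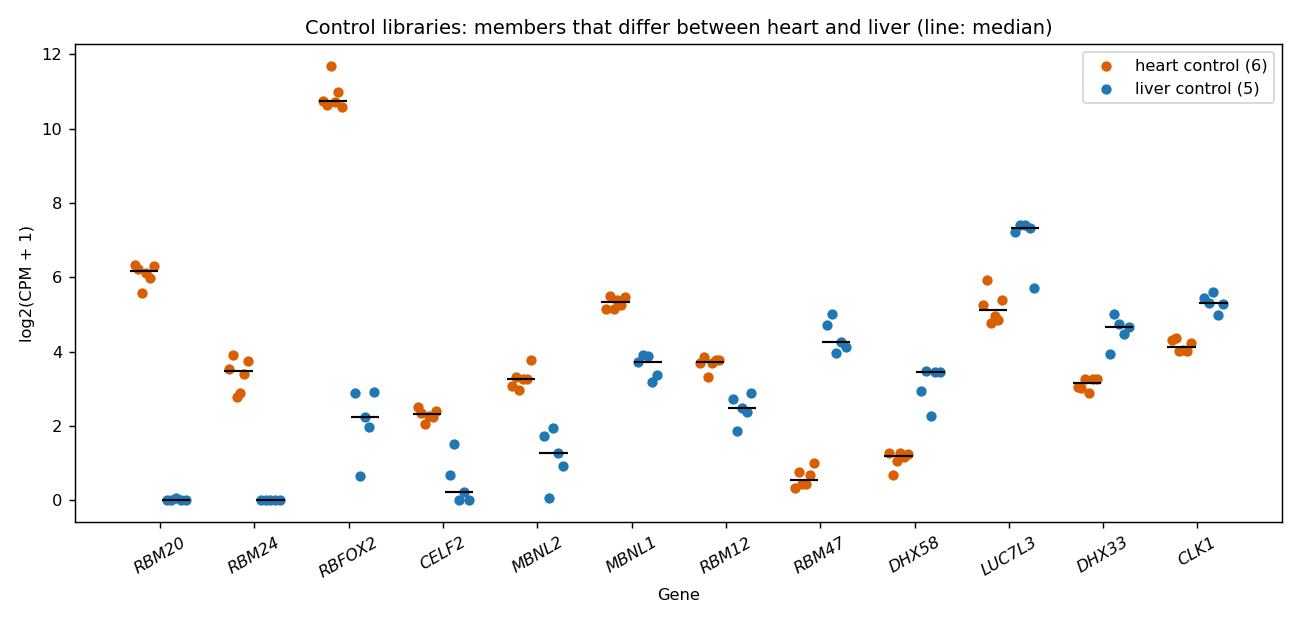
Level of 12 members in control birds as log2(CPM + 1), scaled over both tissues, a point for each of 6 heart (orange) and 5 liver (blue) libraries and a line at the group median. RBM20 and RBM24 are at or near 0 in liver, RBFOX2 (whose heart level cannot be told apart from myoglobin) is highest in heart, and RBM47, DHX58, LUC7L3, DHX33 and CLK1 are higher in liver.

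On the liver side RBM47 led. It was at 25.3, 31.0, 14.6, 18.3 and 16.5 CPM in liver and 0.261 to 0.993 CPM (median 0.480) in heart, a log2 difference of 5.12 (SE 0.394, adjusted p = 1.8e-11). DHX58 was at 6.70, 10.2, 3.84, 9.87 and 9.998 CPM in liver and 0.596 to 1.42 CPM (median 1.296) in heart (log2 difference 2.69, SE 0.371, adjusted p = 6.03e-07). LUC7L3, a relative of LUC7L2, was at 148, 170, 168, 159 and 51.7 CPM in liver and 26.0 to 59.8 CPM (median 33.7) in heart (log2 difference 1.91, SE 0.480, adjusted p = 0.00141). Liver control 6 alone fell among the heart libraries in LUC7L3. RBM47 and DHX58 were also picked for a large difference. DHX33, a helicase of nucleolar and antiviral RNA, differed by 1.58 (SE 0.300, adjusted p = 6.71e-05) and RBM25, a splicing factor of the U1 snRNP, by 1.48 (SE 0.476, adjusted p = 0.00914). CLK1, CLK3 and TRA2A were all 3 higher in liver, by 1.21, 0.45 and 1.01 on the log2 scale (adjusted p = 7.18e-06, 0.0262 and 0.000807), CLK3 turning to -0.31 with liver control 3 included. Of the 5 hnRNP and PTB genes 3 were higher in liver, such as HNRNPH3 by 0.76 (adjusted p = 0.00263), while HNRNPA2B1 differed by -0.38 (adjusted p = 0.237). SF3B1 differed by 0.51 (adjusted p = 0.0789). No snRNP core or Sm-like gene was higher in liver past the threshold, and SNRPA1 was higher in heart (log2 difference -1.29, SE 0.586, adjusted p = 0.0448), a call lost in 9 of the 23 fits that left out a library (adjusted p up to 0.0925). RBM25 was lost without liver control 4 (adjusted p = 0.0505), and CLK3 in 9 of the 23 fits (adjusted p up to 0.262).

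The RBFOX2 value has a limit of its own. Its gene model on chromosome 1 runs from 50177603 to 50298143, past the end of RefSeq's RBFOX2 at 50280145, and shares 3683 bp with RefSeq's MB, the gene of myoglobin, which has no row in the count table. RBFOX2 held 17386 to 101169 counts in the heart libraries and 13 to 180 in the liver libraries used, a log2 difference of -8.90 between the controls (SE 0.703, adjusted p = 5.42e-11). Reads of the 2 genes cannot be told apart in this row, so its level is not read as RBFOX2. Sal-exposed heart library 1, at 6010 CPM, and heart control 3, at 3153 CPM, were the highest in their groups. Other models that share bases with a neighbour include SNRPB2, with 14588 bp of KIF16B, and HNRNPK, which covers KIF27. In the count table's own coordinates 12 of the 73 members overlap another model.

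RBM20 and RBM24, too low in liver to enter the liver fit, were found mostly in Sal-exposed livers. RBM20 had 5, 5, 4, 2, 2 and 1 counts in Sal-exposed liver libraries 1 to 6 and 1 count over the 5 controls, a pooled CPM ratio of 14.2 (95% counting interval 2.25 to 589). RBM24 had 2, 8, 2, 3, 8 and 4 counts after Sal and 0 in all 5 controls, at least 6.71-fold higher against a floor of 3 counts over the control group. The intervals and floors cover counting error only. Every Sal-exposed liver held at least 1 read of both genes. In the same libraries the 5 cardiomyocyte markers summed to 7.41 to 37.1 CPM, against 0.110 to 7.76 CPM in the controls, with 1 of the 5 at 0 in all controls. Each stood in Sal-exposed liver at 0.0701 to 0.213% of its level in Sal-exposed heart, where RBM20 stood at 0.268% and RBM24 at 2.89%. The part of heart RNA in these counts was not tested. DDX60, a relative of antiviral sensors, was too low for all 4 fits, with 163 counts in liver control 1 and 0 to 8 in each other library.

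Genes of the same machinery outside the symbol rule were counted from listed symbols. Of 43 listed further spliceosome genes 32 were in the table, and in liver 0 rose and 8 fell of the 32 tested (7.36% of all genes rose and 6.89% fell), with a median log2 fold change of -0.39. In heart 0 of 31 passed (median 0.20), and in the difference 1 was higher and 10 lower of 32 (median -0.60), beside 10% higher and 8.46% lower of all genes. Of 87 listed genes of other RNA-binding and RNA processing proteins 63 were in the table, and in liver 3 rose and 6 fell of 61 (median -0.16), set against the same shares of all genes in liver. In heart 0 of 62 of these passed (median 0.12). Adding the 56 genes whose symbols came from RefSeq to the members gave 9 higher and 15 lower of 125 tested in liver, or 7.2 and 12%. In heart it gave 0 of 127. On their own the 56 gave 3 higher and 5 lower of 55 tested in liver, or 5.45 and 9.09%. The shares in liver were 8.57 and 14.3% for the members and 7.36 and 6.89% for all genes.

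**Figure D5:**
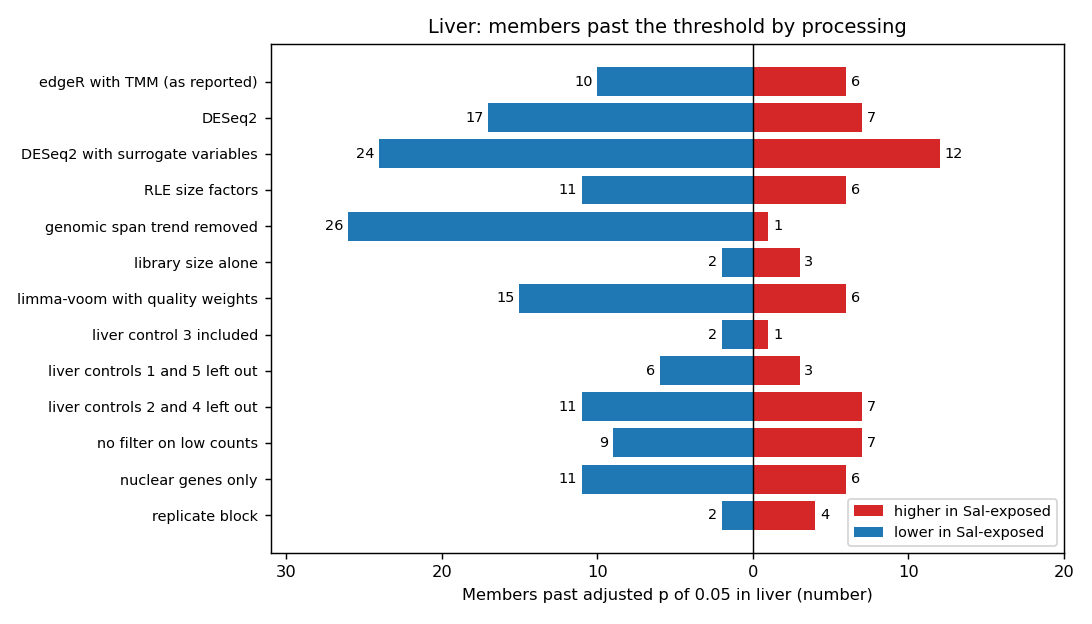
Number of members past an adjusted p of 0.05 in liver (x axis), higher in the Sal-exposed birds to the right of 0 in red and lower to the left in blue, for the fit as reported and each alternative. The fit as reported has 6 higher and 10 lower (7.36 and 6.89% of all genes). The counts run from 1 to 12 higher and from 2 to 26 lower. The 12 came with surrogate variables, where 30% of all genes were higher and 16.2% lower. The span trend removed gives 1 and 26 (3.3 and 17.4% of all genes) and liver control 3 included 1 and 2 (1.68 and 1.54%).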

How the data were processed

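Messenger RNA libraries were made from total RNA of bulk heart and liver tissue pieces in 24 samples, and groups were taken from the sample titles. The authors trimmed reads with fastp, aligned them with STAR to Turkey_5.1 under the Ensembl annotation, and deposited RSEM estimated counts per gene, which assign ambiguous reads by estimation. The estimated counts were whole numbers in the deposited table, so no rounding was needed. For the upstream tools the versions and the use of strand, and for the 11587 rows the filter, were not given in the sources used here. Of 36 columns of library values 24 matched a sample, and the other 12 were not used. The authors' deposited comparison tables hold DESeq2 log2 fold changes and p-values, which were not used, and gave only gene symbols and positions. The study's methods name DESeq2 with batch correction by the sva package, and DESeq2 with surrogate variables is given here as an alternative. RefSeq symbols on Turkey_5.1 were carried over to a gene when spans overlapped by at least 50% of both.

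Genes were tested with edgeR 4.0.16 in R 4.3.3 (quasi-likelihood F test, robust, TMM, filterByExpr, prior count 2) with Benjamini-Hochberg adjustment over all genes. Heart was fitted with 6 and 6 libraries, liver with 6 and 5, and the difference and the control tissue contrast with all 23. A member passed when its adjusted p was 0.05 or less, and was called when its log2 fold change also reached 1 in size. Each SE is the unshrunk log2 fold change over the root of F. The code was tested on simulated data. Library measures were compared with exact permutation tests, 2-sided, adjusted over 6 tests. Outlying values were looked for within groups of 5 or 6 libraries. CPM ratios of genes near 0 carry exact counting intervals of 95%. Alternatives were DESeq2 1.42.0, DESeq2 with surrogate variables (sva 3.50.0, 2 in heart and 3 in liver), voom with quality weights (limma 3.58.1), other scalings, no filter, removal of the genomic span trend, a replicate block, liver control 3 included, and each library left out.

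The members and lists were chosen with earlier results of these data known. The genes named are, for heart, liver and the difference, those past the threshold in order of p up to 16, or the 10 with the smallest p where fewer passed. Added to these are the 5 called members highest in each tissue, the highest and lowest member of each role in liver, and a list of known splicing regulators. Other members are named where a count of 5 or fewer or a neighbouring result includes them, chosen after their values were seen.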

Additional observations from a re-analysis of the deposited data

Results flagged for a closer look

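For the named members, which were partly chosen for a small p or an extreme level, the highest or lowest library of each group of 5 or 6 was set against the others by the gap to its nearest neighbour over the whole range (Dixon's 95% limit). Of 152 groups 17 held such a library, and 10 of the 17 were Sal-exposed heart library 1. The limit assumes normal values and would flag about 1 in 20 independent groups. These groups hold CPM values and share their libraries, so that rate is no reference for the 17. In that library RBM7, a subunit of a nuclear RNA exosome adaptor, stood at 199.7 CPM, SF3B6 at 128 CPM, SNRPB2 at 38.5 CPM, DHX33 at 26.4 CPM, LSM4 at 26.3 CPM, SNRNP40 at 17.05 CPM, SNRPA1 at 9.39 CPM and LSM1 at 9.27 CPM, each the highest of its group. RBFOX2, a row shared with myoglobin, stood at 6010 CPM there, and RBM47 was at 0 CPM, the lowest of its group. Heart control 3 was the highest control in RBFOX2 at 3153 CPM, RBM7 at 59.7 CPM and SF3B6 at 48.2 CPM. Both libraries also had a genomic span trend below 0, and the cause was not tested. Single values apart from their group were CLK3 in liver control 2 at 8.35 CPM and LUC7L3 in liver control 6 at 52.4 CPM, both low, DHX36 in heart control 2 at 37.3 CPM, and RBM34 in Sal-exposed liver library 3 at 11.2 CPM, which was high.

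The Sal effect differed between liver and heart in the joint fit (edgeR, Benjamini-Hochberg over all genes), given here as the liver minus the heart log2 fold change. It was higher in liver for RBM12 at 2.00, PRPF4B at 1.59 and DDX17 at 1.16. RBM24 at 2.12 and RBM20 at 1.57 entered the joint fit only through their heart level, with 0 and 1 counts over the 5 liver controls, so neither their calls nor their values, which depend on the prior count, are read as a difference. The effect was lower in liver for LSM1 at -2.57, SNRNP27 at -1.82, SNRPB2 at -1.73, RBM34 at -1.68, RBM45 at -1.54, CLK3 at -1.09, PRPF18 at -1.05, DDX49 at -0.96, LUC7L2 at -0.89, PRPF3 at -0.87 and DHX36 at -0.84. Of all genes tested 10% were higher and 8.46% lower. With library size alone only SNRNP27 of these lower effects still passed. CLK3, DDX49, DHX36, LSM1 and LUC7L2 were also lost with liver control 3 included. The replicate block lost DDX49, DHX36, LSM1, LUC7L2 and PRPF3. Leaving out Sal-exposed heart libraries 1 and 5 lost LSM1 and RBM34. PRPF4B and DDX17 were lost with the genomic span trend removed.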

How the results depend on the processing

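Counts are members past the adjusted p, higher and lower, and those also past the fold. In heart, reported as 0, DESeq2 gave 4 higher (4.89% of all genes passed in either direction). DESeq2 with surrogate variables gave 9 higher and 5 lower (14.5% of all genes in either direction). Voom gave 1 higher and 4 lower with 1 past the fold (10.1% of all genes in either direction). Leaving out each library gave 0 throughout. Liver was reported as 6 higher, 10 lower and 5 past the fold. Surrogate variables gave 12, 24 and 8, and the span trend removed 1, 26 and 10. Library size alone gave 3, 2 and 3, and liver control 3 included 1, 2 and 1. Of all genes, 7.36% were higher and 6.89% lower as reported, and 30 and 16.2% with surrogate variables. These shares were 3.3 and 17.4% with the span trend removed and 5.9 and 2.11% with library size alone. They were 1.68 and 1.54% with liver control 3 included. DESeq2 gave 17 lower (10.7% of all genes) and voom 8 past the fold. Liver controls 1 and 5 left out (chosen after seeing the data) gave 3 higher and 6 lower (3.95 and 2.81% of all genes). RefSeq symbols added gave 9 higher, 15 lower and 8 past the fold. Leaving out each library gave 3 to 6 higher, 4 to 13 lower and 2 to 6 past the fold. The lowest counts came without control 5, Sal-exposed library 2 or Sal-exposed library 5. They were 3, 5 and 2 without control 5 (4.47% of all genes higher and 3.22% lower). Without Sal-exposed library 2 they were 3, 4 and 3 (3.65 and 3.62% of all genes). Without Sal-exposed library 5, 4 were lower (3.78% of all genes) and 2 past the fold. Without control 4 or Sal-exposed library 1 or 4, 5 or 6 were lower (6.64, 4.46 and 4.27% of all genes). The difference between tissues was reported as 8 higher, 19 lower and 21 past the fold (10% of all genes higher and 8.46% lower). The span trend removed gave 4 higher (5.13% of all genes). Library size alone gave 1 lower (0.833% of all genes) and 9 past the fold. Liver control 3 included gave 6 lower (2.61% of all genes) and 11 past the fold. Sal-exposed heart libraries 1 and 5 left out (chosen after seeing the data) gave 10 lower (2.95% of all genes) and 11 past the fold. Leaving out each library gave 7 to 11 higher, 12 to 19 lower and 13 to 22 past the fold. The 12 lower came without heart control 2, Sal-exposed heart library 1 or liver control 4 (5, 4.2 and 6.03% of all genes). Control birds were reported as 28 higher in liver, 10 higher in heart and 25 past the fold (29.8% of all genes higher in liver and 27.8% lower). Library size alone gave 16 higher (20.9% of all genes). Liver control 3 included gave 9 higher and 18 lower (17 and 39.7% of all genes). RefSeq symbols added gave 50 and 18, and liver controls 2 and 4 left out (chosen after seeing the data) 16 past the fold. Leaving out each library gave 19 to 29 higher, 8 to 14 lower and 19 to 27 past the fold. Over all genes, leaving out each library moved the called genes from 102 to 52 to 143 in heart, from 854 to 506 to 1261 in liver, from 1838 to 1442 to 2301 for the difference and from 5281 to 5148 to 5457 for control birds. The RBFOX2 row, which cannot be told apart from myoglobin, turned in heart from 0.11 to -0.71 with surrogate variables (DESeq2, adjusted p = 1.85e-10). With liver control 3 included the tissue difference turned to -0.31 for CLK3, -0.0205 for HNRNPA3 and -0.0151 for PRPF3. The cause of these changes was not tested. For the 39 named members under the alternatives other than left-out libraries, 1474 values kept direction and side of the threshold, 72 came to pass, 141 no longer passed, 4 turned with a pass in either fit (above), and 77 turned with no pass in either. In heart 13 named members turned at least once: CLK1, DDX5, DHX36, HNRNPA2B1, LSM3, LUC7L2, LUC7L3, MBNL1, PRPF18, PRPF3, RBFOX2, RBM47 and SF3B1.

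Replicate numbers were not used to pair libraries in the reported fits. Deviations correlated above 0.1 in 1 of 6 same-numbered pairs of Sal-exposed and control libraries in heart and 0 of 5 in liver. The same held for 2 of 6 pairs between Sal-exposed heart and liver and 1 of 5 between control heart and liver. Heart and liver of the same bird need not correlate in this way. These values therefore cannot decide whether a shared number marks the same bird. With the replicate number as a block, liver had 4 higher and 2 lower (4.52 and 2.45% of all genes). Heart had 0 (0.292% of all genes in either direction) and the difference 8 lower (3.15% of all genes). As reported, the shares of all genes were 7.36 and 6.89% in liver, 1.01% in heart and 8.46% lower for the difference. Every other count with the block was within 1.5 times the reported count. Depth limits the low members, such as MBNL2, where liver control 2 rests on 1 count.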
